A study of Mus musculus with 9 samples.

Results

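The 8 genes described here, Wfdc2, Clu, Scgb3a1, Cftr, Gabrp, Cd44, Ceacam10 and Sox9, are secretory, channel, surface and regulatory genes of ducts and mucosae that are often used as markers of metaplasia. They are 8 of the 18423 genes of the deposited expression table, and they were picked by name with their values in these libraries known. Their levels are therefore given as a description, with no p-value. The table holds 9 RNA-seq libraries in 3 groups of 3, all from poly(A) RNA of stomach corpus glands.

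Arid1a_Het mice carried Atp4bCre, Rosa26NICD and Arid1aflox/+, that is, 1 of their 2 Arid1a copies was flanked by loxP sites. Ctrl mice carried Atp4bCre and Rosa26NICD with no floxed Arid1a, so the NICD transgene is shared by both groups. WT mice were wild type. Atp4bCre makes Cre recombinase under the promoter of a proton pump subunit gene of parietal cells, the acid-secreting cells of the corpus. Rosa26NICD encodes the Notch intracellular domain, the active part of the Notch receptor, and Arid1a encodes a subunit of a chromatin remodelling complex. Cells that never made Cre keep both Arid1a copies, and their RNA is part of each library. The tissue was corpus with tumours, or the analogous site of a normal stomach, so in comparisons with WT the genotype and the presence of a tumour cannot be told apart. The age of the mice is not given in the sources used here, and it is not stated whether each library is a different mouse. Any p-value below sets a difference of group means against the spread among libraries of the same group. That spread is estimated jointly over the groups in a fit, and it may in part be technical.

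When the stomach corpus loses parietal cells, its glands can take on another state, known as pyloric or spasmolytic polypeptide-expressing metaplasia, in which chief cells and neck cells lose their specialised features and secretory genes of neck and duct type appear. WFDC2 (also called HE4), clusterin and CD44 variants are commonly used to mark it. Many of these genes are also typical of ducts elsewhere: CFTR carries chloride and bicarbonate in pancreatic and biliary ducts, SOX9 maintains duct and progenitor cells there, and the SCGB3A1 protein is secreted by airway epithelium. In bulk glands, fewer cells of a type and less RNA per cell cannot be told apart, and neither can more cells and more RNA per cell.

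Arid1a itself stood at 8.94, 5.90 and 6.96 FPKM in Arid1a_Het, at 14.9, 13.3 and 16.2 FPKM in Ctrl and at 13.5, 7.79 and 11.97 FPKM in WT. FPKM is the number of fragments scaled to transcript length and to the mapped reads of the library. All Arid1a_Het libraries lay below all Ctrl libraries, with a log2 fold change of -0.95 (SE 0.22, adjusted p = 0.299 in limma), while WT 2 lay inside the Arid1a_Het range. The parietal gene Atp4b was detected in every library, at 133 to 1861 FPKM in Arid1a_Het, 79.8 to 427 FPKM in Ctrl and 1241 to 5304 FPKM in WT. Nrarp, a direct Notch target, was at 161 to 263 FPKM in Arid1a_Het, 113 to 194 FPKM in Ctrl and 3.80 to 9.06 FPKM in WT. Libraries held 22653249 to 29478481 reads over genes, worked out from the FPKM steps. Exocrine pancreas genes stood far above the other libraries in Ctrl 1 and Arid1a_Het 3, with sums of 3972 and 1539.7 FPKM against 80.3 to 328 FPKM elsewhere, which bears on genes of pancreatic ducts. Differences of the 8 genes without both libraries are given below, with some results for other genes.

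The promoters of 3 genes are shown so that they can be read beside the levels below: Gabrp and Scgb3a1, which differed most between Ctrl and WT and were nearly silent in WT, and Wfdc2, which WT glands also expressed. Each window runs from 250 bases before to 50 bases after the RefSeq start of transcription on GRCm38.p6, 5′ to 3′ on the strand of the gene. Capitals mark a match to TGGGAA, the core of the motif of RBPJ, the DNA-binding partner of NICD, read on either strand, and the Gabrp window has none. Wfdc2 lies on the plus strand at chr2:164562465-164562764, Scgb3a1 on the plus strand at chr11:49663345-49663644 and Gabrp on the minus strand at chr11:33578908-33579207.
Wfdc2: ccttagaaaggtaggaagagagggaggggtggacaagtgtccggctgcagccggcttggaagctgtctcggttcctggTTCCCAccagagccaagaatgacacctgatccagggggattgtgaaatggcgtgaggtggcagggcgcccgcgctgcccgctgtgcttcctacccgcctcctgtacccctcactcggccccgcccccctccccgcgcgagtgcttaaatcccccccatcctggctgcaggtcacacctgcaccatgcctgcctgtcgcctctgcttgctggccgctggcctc
Scgb3a1: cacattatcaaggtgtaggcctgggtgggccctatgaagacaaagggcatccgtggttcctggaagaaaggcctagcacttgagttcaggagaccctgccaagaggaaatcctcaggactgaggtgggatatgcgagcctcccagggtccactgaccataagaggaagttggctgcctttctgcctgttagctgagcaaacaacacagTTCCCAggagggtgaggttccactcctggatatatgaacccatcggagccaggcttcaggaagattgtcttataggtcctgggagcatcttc
Gabrp: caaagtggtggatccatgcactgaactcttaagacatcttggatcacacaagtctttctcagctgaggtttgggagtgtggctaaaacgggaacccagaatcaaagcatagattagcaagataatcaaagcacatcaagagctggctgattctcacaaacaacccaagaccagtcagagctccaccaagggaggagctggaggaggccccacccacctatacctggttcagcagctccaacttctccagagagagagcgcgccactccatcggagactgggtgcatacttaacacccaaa
Counted from the RefSeq start, the TGGGAA match is at position -172 in Wfdc2 and -42 in Scgb3a1, on the opposite strand in both. Of the 6 genes with a promoter in the RefSeq table, 3 held a TGGGAA match: these 2 and Cd44. Such a match is found in 25.4% of the 32544 distinct promoter windows of that table. TGANTCA (AP-1) was in 0 of the 6, against 7.79% of all windows. ACAATG (SOX factors) was in 1 of the 6, Ceacam10, against 12.4%, and the TATA box, searched as TATAAA, was in 0 of the 6, against 13.6%. All motifs were searched on both strands, and no window of the 6 held matches to more than 1 of them. The RefSeq start of Wfdc2 lies inside the GENCODE gene, whose own start is further upstream. A match is only a run of letters and says nothing about binding.

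Of the secreted products, clusterin was the most abundant transcript of the 8 genes. Clu (chromosome 14, 65968483 to 65981547, plus strand, GRCm38) encodes an extracellular chaperone. It stood at 3636, 2015 and 6211 FPKM in Arid1a_Het 1, 2 and 3, at 3455, 3536 and 5639 FPKM in Ctrl 1, 2 and 3, and at 588, 633 and 662 FPKM in WT 1, 2 and 3. Every library with the NICD transgene lay above every WT library, and Arid1a_Het and Ctrl overlapped. The means were 3954 ± 2116 FPKM in Arid1a_Het, 4210.05 ± 1238 FPKM in Ctrl and 628 ± 37.5 FPKM in WT (SD, n = 3 each). By FPKM, Clu was among the leading genes of the transgenic glands: of all genes it ranked 5 to 16 in Arid1a_Het, 5 to 8 in Ctrl and 44 to 47 in WT. It took up to 2.14% of all reads in Arid1a_Het and up to 1.94% in Ctrl, against 0.202% to 0.228% in WT.

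Wfdc2 (chromosome 2, 164562413 to 164568510, plus strand) encodes a small secreted protein with WAP domains, the fold of several protease inhibitors of mucosal surfaces. It was at 438, 245 and 732 FPKM in Arid1a_Het 1, 2 and 3, at 345, 400.1 and 539.9 FPKM in Ctrl 1, 2 and 3, and at 49.2, 41.2 and 17.9 FPKM in WT 1, 2 and 3. WT libraries thus all expressed Wfdc2, and every library with the transgene lay above all of them. The means of 471 ± 245 FPKM in Arid1a_Het and 428 ± 100.4 FPKM in Ctrl were 13.1 and 11.9 times the WT mean of 36.1 ± 16.2 FPKM (SD, n = 3 each). On the log2(FPKM + 1) scale Arid1a_Het differed from Ctrl by 0.02 (SE 0.45), with a spread in Arid1a_Het wider than in Ctrl.

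Scgb3a1 (chromosome 11, 49663610 to 49665118, plus strand) encodes a secretoglobin, a small secreted protein of airway and other mucosal epithelia. It was at 4.61, 23.7 and 16.6 FPKM in Arid1a_Het 1, 2 and 3, at 45.1, 57.3 and 47.6 FPKM in Ctrl 1, 2 and 3, and at 0.216, 0.0635 and 0 FPKM in WT 1, 2 and 3. The 3 groups did not overlap, and Arid1a_Het lay between Ctrl and WT. In reads these levels were 79, 401 and 289 in Arid1a_Het and 611, 1011 and 770 in Ctrl, against 3, 1 and 0 in WT, so the WT level is at the limit of detection. The Arid1a_Het mean of 15.0 ± 9.65 FPKM was 0.300 times the Ctrl mean of 50.002 ± 6.45 FPKM (SD, n = 3 each), the lowest such ratio among the 8 genes, and the log2 difference was -1.91 (SE 0.45).

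Of the channels, Cftr (chromosome 6, 18170687 to 18322768, plus strand) encodes the chloride and bicarbonate channel of secretory epithelia. It stood at 41.4, 9.52 and 51.4 FPKM in Arid1a_Het 1, 2 and 3, at 53.9, 35.9 and 60.1 FPKM in Ctrl 1, 2 and 3, and at 2.79, 0.876 and 4.15 FPKM in WT 1, 2 and 3. No WT library reached the lowest transgenic library, Arid1a_Het 2, and Arid1a_Het overlapped Ctrl through Arid1a_Het 1 and 3. The means were 34.1 ± 21.9 FPKM in Arid1a_Het, 49.98 ± 12.6 FPKM in Ctrl and 2.61 ± 1.65 FPKM in WT (SD, n = 3 each). The ratio of means to WT was 13.1 for Arid1a_Het and 19.2 for Ctrl.

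Gabrp (chromosome 11, 33550781 to 33578959, minus strand) encodes the pi subunit of GABA-A receptors, chloride channels that are best known from neurons, although this subunit is made mainly by epithelia. Its level was 56.4, 12.5 and 128 FPKM in Arid1a_Het 1, 2 and 3, and 60.7, 59.7 and 47.3 FPKM in Ctrl 1, 2 and 3, against 0.179, 0.0900 and 0.0255 FPKM in WT 1, 2 and 3. The Ctrl libraries were close to each other, while the highest Arid1a_Het library was 10.3 times the lowest, the widest span within a group of the transgenic glands for any of the 8 genes. Reads numbered 5453, 1197 and 12610 in Arid1a_Het and 4651, 5953 and 4317 in Ctrl, against 14, 8 and 2 in WT. Since WT values were far below 1 FPKM for both Gabrp and Scgb3a1, the size of their log2 difference from WT depends on the pseudocount. For Ctrl against WT, Gabrp had 5.69 (SE 0.64) with a pseudocount of 1 and 8.21 with 0.1, and Scgb3a1 had 5.54 (SE 0.45) with 1 and 8.17 with 0.1.

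Of the surface proteins, Cd44 (chromosome 2, 102811141 to 102901665, minus strand) encodes a receptor for hyaluronan that many epithelial and blood cells carry. It was at 22.9, 9.67 and 50.8 FPKM in Arid1a_Het 1, 2 and 3, at 44.9, 29.1 and 41.4 FPKM in Ctrl 1, 2 and 3, and at 11.9, 1.98 and 11.5 FPKM in WT 1, 2 and 3. All Ctrl libraries lay above all WT libraries, but Arid1a_Het 2 lay inside the WT range. The means were 27.8 ± 21.0 FPKM in Arid1a_Het, 38.5 ± 8.27 FPKM in Ctrl and 8.45 ± 5.61 FPKM in WT (SD, n = 3 each). Each gene has a single value, so the CD44 splice variants used as metaplasia markers were not told apart from standard CD44. Leukocytes also make CD44. The general leukocyte marker Ptprc was at 0.278 to 1.42 FPKM in Arid1a_Het, 0.919 to 1.70 FPKM in Ctrl and 0.296 to 0.461 FPKM in WT, and its part in the Cd44 level was not tested.

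Ceacam10 (chromosome 7, 24777206 to 24784657, plus strand), a mouse member of the carcinoembryonic antigen family of adhesion molecules, was the scarcest of the 8 in Arid1a_Het and Ctrl. It stood at 0.420, 2.15 and 1.91 FPKM in Arid1a_Het 1, 2 and 3, at 4.19, 5.80 and 2.72 FPKM in Ctrl 1, 2 and 3, and at 2.10, 2.996 and 1.67 FPKM in WT 1, 2 and 3. Arid1a_Het lay below Ctrl without overlap, while Ctrl and WT overlapped, as did Arid1a_Het and WT. Reads were 18, 91 and 83 in Arid1a_Het and 142, 256 and 110 in Ctrl, against 73, 118 and 58 in WT, so counting error is larger here than for the other genes with signal in every group. The Arid1a_Het mean of 1.49 ± 0.937 FPKM was 0.352 times the Ctrl mean of 4.24 ± 1.54 FPKM (SD, n = 3 each), and the WT mean was 2.26 ± 0.677 FPKM. The log2 difference between Arid1a_Het and Ctrl was -1.11 (SE 0.34) with a pseudocount of 1 and -1.64 with 0.1.

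The transcription factor gene Sox9 (chromosome 11, 112782224 to 112787760, plus strand) varied least. It was at 22.01, 27.2 and 27.0 FPKM in Arid1a_Het 1, 2 and 3, at 41.9, 45.6 and 29.2 FPKM in Ctrl 1, 2 and 3, and at 24.6, 15.9 and 21.5 FPKM in WT 1, 2 and 3. Ctrl lay above both other groups without overlap, and Arid1a_Het overlapped WT. The means were 25.4 ± 2.92 FPKM in Arid1a_Het, 38.9 ± 8.62 FPKM in Ctrl and 20.7 ± 4.397 FPKM in WT (SD, n = 3 each). The Arid1a_Het mean was 0.652 times the Ctrl mean, and the Ctrl mean was 1.88 times the WT mean.

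**Figure D1:**
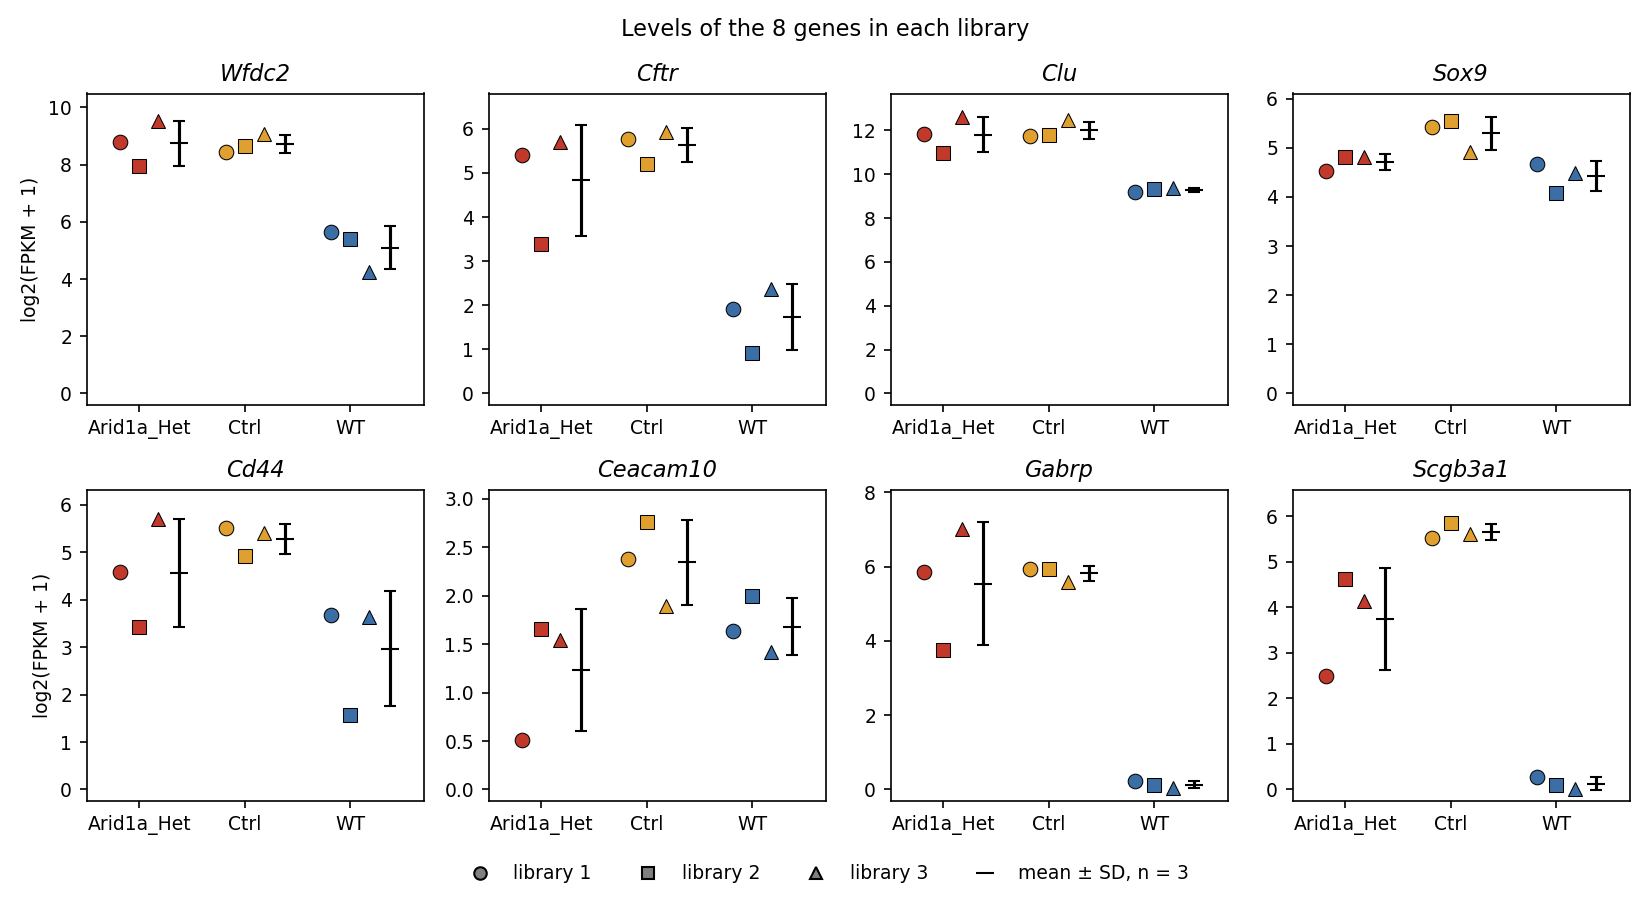
Levels of the 8 genes as log2(FPKM + 1), 1 panel per gene, with a symbol for each of the 3 libraries of Arid1a_Het, Ctrl and WT and the mean ± SD beside them. Clu, Wfdc2, Cftr, Gabrp and Scgb3a1 were higher in every transgenic library than in any WT library, and Sox9, Ceacam10 and Scgb3a1 were lower in every Arid1a_Het library than in any Ctrl library.

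Per length, as FPKM, the levels of the 8 genes covered a wide range: group means ran from 1.49 to 3954 FPKM in Arid1a_Het, from 4.24 to 4210.05 FPKM in Ctrl and from 0.0932 to 628 FPKM in WT. In Arid1a_Het the order of the means was Clu, Wfdc2, Gabrp, Cftr, Cd44, Sox9, Scgb3a1 and Ceacam10. Clu lay above Wfdc2, and Wfdc2 above Gabrp, in all libraries of that group, while neighbours from Gabrp to Scgb3a1 overlapped and Ceacam10 lay below the rest. The Ctrl means began with Clu and Wfdc2 as well, which lay apart without overlap, then Gabrp, Scgb3a1, Cftr, Sox9 and Cd44, each of which overlapped its neighbour, and ended with Ceacam10 below the rest. In WT the order was Clu, Wfdc2, Sox9, Cd44, Cftr, Ceacam10, Gabrp and Scgb3a1. Clu lay above Wfdc2, Sox9 above Cd44 and Ceacam10 above Gabrp there without overlap, whereas Wfdc2 and Sox9, Cd44 and Cftr, Cftr and Ceacam10, and Gabrp and Scgb3a1 overlapped.

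The NICD transgene and Cre set Ctrl apart from WT. Set side by side, the differences of group means in log2(FPKM + 1) were 5.69 for Gabrp, 5.54 for Scgb3a1, 3.91 for Cftr, 3.62 for Wfdc2, 2.71 for Clu and 2.31 for Cd44. Sox9 at 0.88 (SE 0.21) and Ceacam10 at 0.66 (SE 0.34) were the smallest of the 8. The groups did not overlap for 7 of the 8 genes, all higher in Ctrl, the exception being Ceacam10. Of all 11209 genes tested, 33.5% were likewise higher in every Ctrl library. In limma 6 of the 8 were called higher at an adjusted p under 0.05, where 7.01% of all genes were and 3.04% were called lower, and 5 to 7 of the 8 were called over 18 alternative settings. Nothing is read from these counts, since the genes were picked with values known and Gabrp and Scgb3a1 passed the filter on low values only through Arid1a_Het and Ctrl. The median difference was 3.17 over the 8 genes and 0.24 over all genes tested. With median-ratio scaling the median of all genes was 0.01. The block on replicate number gave 2473 called genes in this comparison, against 1127 without it. With 3 libraries in every group the block cannot change a difference of group means.

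Arid1a_Het against WT, which uses the same WT libraries, gave differences of 5.41 for Gabrp, 3.65 for Wfdc2, 3.63 for Scgb3a1, 3.11 for Cftr, 2.51 for Clu and 1.59 for Cd44. Sox9 was at 0.30 and Ceacam10 at -0.45. Without both pancreas libraries the differences were 4.67 for Gabrp, 3.26 for Wfdc2, 3.43 for Scgb3a1 and 2.67 for Cftr. Clu was then at 2.11, Cd44 at 1.03, Sox9 at 0.25 and Ceacam10 at -0.60. The groups did not overlap for 5 of the 8 genes, Wfdc2, Clu, Scgb3a1, Cftr and Gabrp, all higher in Arid1a_Het, and 10.6% of all genes were as well. The same 5 were called higher in limma, where 2.06% of all genes were and 0.687% were called lower, and 3 were without Arid1a_Het 1, without WT 3 or with no filter on low values. Gabrp and Scgb3a1 could enter the test only through the groups where they were high, and all 8 were picked with values known, so nothing is read from these counts. Over the 8 genes the median difference was 2.81, against 0.02 over all genes tested.

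**Figure D2:**
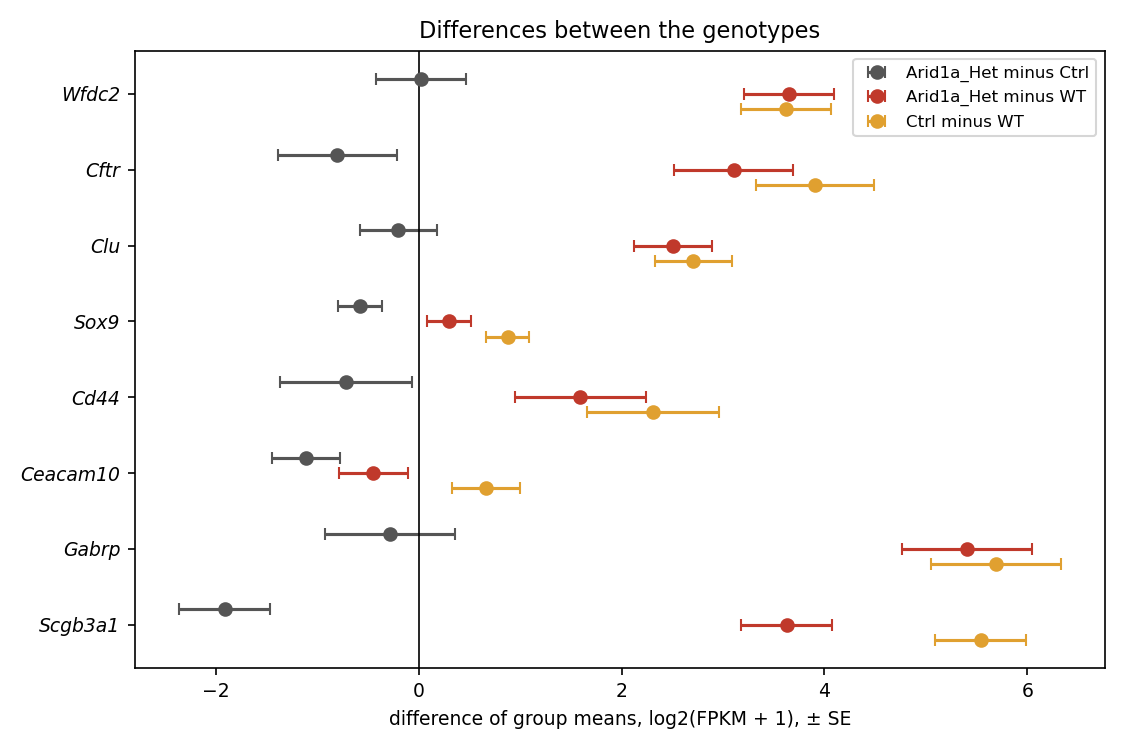
Differences of group means in log2(FPKM + 1) for each of the 8 genes, with bars of 1 SE from limma, for Arid1a_Het minus Ctrl, Arid1a_Het minus WT and Ctrl minus WT. The comparisons with WT share the WT libraries and run up to 5.69 for Gabrp, while Arid1a_Het minus Ctrl runs from -1.91 for Scgb3a1 to 0.02 for Wfdc2.

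Arid1a_Het against Ctrl asks what differs with the floxed Arid1a copy when the NICD transgene is present in both groups. Scgb3a1, Ceacam10 and Sox9 were lower in all Arid1a_Het libraries than in any Ctrl library, with differences of -1.91 (SE 0.45), -1.11 (SE 0.34) and -0.58 (SE 0.21) in log2(FPKM + 1). Of all genes tested, 22.2% were lower in the same way and 2.41% were higher. The other 5 genes overlapped between the groups: Cftr at -0.80 (SE 0.58), Cd44 at -0.72 (SE 0.65), Gabrp at -0.28 (SE 0.64), Clu at -0.20 (SE 0.38) and Wfdc2 at 0.02 (SE 0.45). In limma 0 of the 8 passed an adjusted p under 0.05, as did 0 in limma voom on whole reads, and 3 had an unadjusted p under 0.05. The share called among all genes was 0.00892%, a single gene, and 11.6% had an unadjusted p under 0.05. Nothing is read from these counts, since all 8 genes were picked with values known. The median difference was -0.65 over the 8 genes and -0.16 over all genes, which became 0.03 with median-ratio scaling.

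Not all of these differences were stable in direction. Over 18 alternative settings Scgb3a1 ran from -2.35 to -1.28 and Sox9 from -0.77 to -0.36, and Ceacam10 ran from -1.75 to -0.75 over the 17 that tested it. Cftr and Cd44 were below 0 in every setting too, at -1.24 to -0.08 and -1.28 to -0.14. Some settings cannot change a difference between 2 groups: the filters, the fit of only these groups, the replicate block and leaving out a WT library. Wfdc2, Clu and Gabrp took both signs. Without Arid1a_Het 2 they stood at 0.43, 0.21 and 0.61, and without Arid1a_Het 3 at -0.36, -0.60 and -1.02. Without the libraries with pancreas reads, Arid1a_Het 3 and Ctrl 1, they stood at -0.50, -0.72 and -0.96, with Cftr at -1.17 and Cd44 at -1.16. Scgb3a1 was then at -2.18, Ceacam10 at -1.25 and Sox9 at -0.56.

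The Arid1a_Het libraries spread more widely than the Ctrl libraries for 7 of the 8 genes. The highest Arid1a_Het library was 2.99 times the lowest for Wfdc2, 3.08 times for Clu, 5.12 times for Ceacam10, 5.14 times for Scgb3a1, 5.26 times for Cd44, 5.40 times for Cftr and 10.3 times for Gabrp. The exception was Sox9, at 1.23 times. In Ctrl the same ratio was 1.27 to 2.13 over all 8 genes. The 8 genes fell into 2 orders within Arid1a_Het: Wfdc2, Clu, Cftr, Cd44 and Gabrp were highest in library 3 and lowest in library 2, while Sox9, Ceacam10 and Scgb3a1 were highest in library 2 and lowest in library 1. Those 3 are also the genes that did not overlap between Arid1a_Het and Ctrl. In the deposit Arid1a_Het 3 is numbered apart from the other libraries, which run in sequence. Whether it was made separately is not stated in the sources used here.

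**Figure D3:**
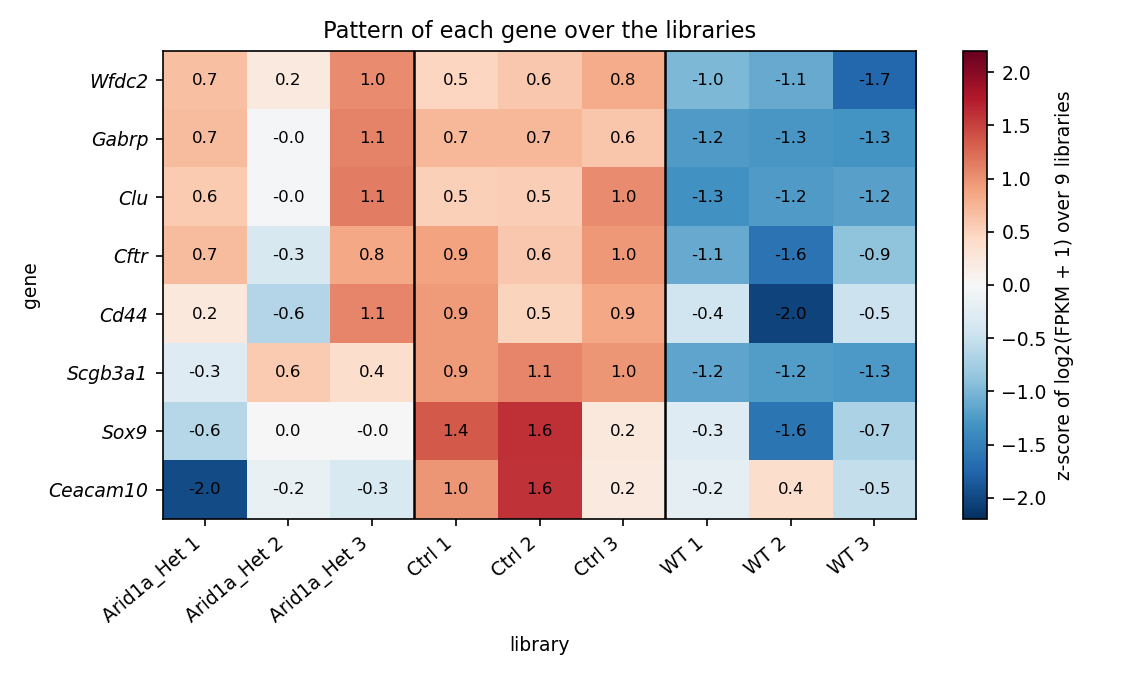
Each gene's log2(FPKM + 1) in each library as a z-score, that is, the distance from the gene's mean over the 9 libraries in units of its SD, for Arid1a_Het, Ctrl and WT libraries in columns. Wfdc2, Gabrp, Clu, Cftr and Cd44 are highest in Arid1a_Het 3 and lowest in Arid1a_Het 2 within that group, and Scgb3a1, Sox9 and Ceacam10 are lowest in Arid1a_Het 1.

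Markers of other cells differed between the same libraries. The summed level of 5 parietal markers was 1359, 5530 and 521 FPKM in Arid1a_Het 1, 2 and 3, 359, 1343 and 840 FPKM in Ctrl 1, 2 and 3, and 2729, 14088 and 6546 FPKM in WT 1, 2 and 3. The 5 include Gif, which is not specific to parietal cells in mice. Gif gave 178 FPKM of the sum in Ctrl 1 and 1037 FPKM in Arid1a_Het 2. Atp4a alone was also highest in library 2 of each group, at 2557 FPKM in Arid1a_Het, 470 FPKM in Ctrl and 7584 FPKM in WT. The sum of the 5 chief cell markers was 13029.6, 81660.2 and 7112 FPKM in Arid1a_Het, 5548, 19044 and 6420.3 FPKM in Ctrl, and 11868, 81473 and 35539 FPKM in WT. Arid1a_Het 2, the library lowest in Wfdc2, Clu, Cftr, Cd44 and Gabrp, was thus the highest of its group in parietal and chief markers. WT 2 was the highest of its group in both and the lowest in Cftr, Cd44 and Sox9, but not in Wfdc2, Clu or Gabrp. Ctrl 2 was the highest of its group in both as well, and it was the lowest of its group in Cftr and Cd44 and the highest in Sox9, Ceacam10 and Scgb3a1. Arid1a_Het 3, highest in the same 5 genes, was the highest of its group in corpus neck, pancreas, antral, leukocyte, squamous and fibroblast markers. Its 4 neck markers summed to 11117 FPKM, against 5533 FPKM for Arid1a_Het 1 and 7268 FPKM for Arid1a_Het 2. The part of these cells in the levels of the 8 genes was not tested.

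The sum of 11 exocrine pancreas markers was 86.8, 85.7 and 1539.7 FPKM in Arid1a_Het, 3972, 195 and 80.3 FPKM in Ctrl, and 328, 111 and 271 FPKM in WT. Outside Ctrl 1 and Arid1a_Het 3 most of the sum was the elastase Cela1, at 79.4 to 324 FPKM. Cela3b, Cpa1, Cpb1 and Prss1 were at 0 in some libraries. Gabrp and Scgb3a1 in Ctrl 2 and 3, whose pancreas sums were below that of WT 1, were at 47.3 to 59.7 FPKM, and Cftr and Wfdc2 there were at 35.9 to 60.1 FPKM and 400.1 to 539.9 FPKM. The part of pancreatic tissue, acinar or ductal, in these levels was not tested. Without Ctrl 1 and Arid1a_Het 3 the differences between Ctrl and WT were 5.63 for Gabrp, 5.61 for Scgb3a1, 3.84 for Cftr and 3.77 for Wfdc2. Clu was then at 2.83, Cd44 at 2.19, Sox9 at 0.81 and Ceacam10 at 0.65. The sum of 12 leukocyte markers was 426 to 855 FPKM in Arid1a_Het, 430.3 to 721 FPKM in Ctrl and 54.9 to 114 FPKM in WT, with Cd79a and Ly6g at 0 in some libraries. In Arid1a_Het and Ctrl most of it came from the mast cell proteases Mcpt1 and Mcpt2, while in WT 2 the macrophage lysozyme gene Lyz2 gave 84.5 FPKM. Of the 9 leukocyte markers tested in limma, 2 were called higher against WT in Arid1a_Het and 4 in Ctrl, beside 2.06% and 7.01% of all genes. Of 6 airway markers, which matter for Scgb3a1, 2 had values, Foxj1 and Scgb1a1, and they summed to at most 3.37 FPKM, the club cell gene Scgb1a1 being at 0 in 5 of the 9 libraries. The 3 antral genes Gast, Pdx1 and Nkx6-2 summed to 3.95 to 3155 FPKM in Arid1a_Het, 25.4 to 1413 FPKM in Ctrl and 579 to 3415 FPKM in WT, so all groups held libraries with antral gastrin.

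**Figure D4:**
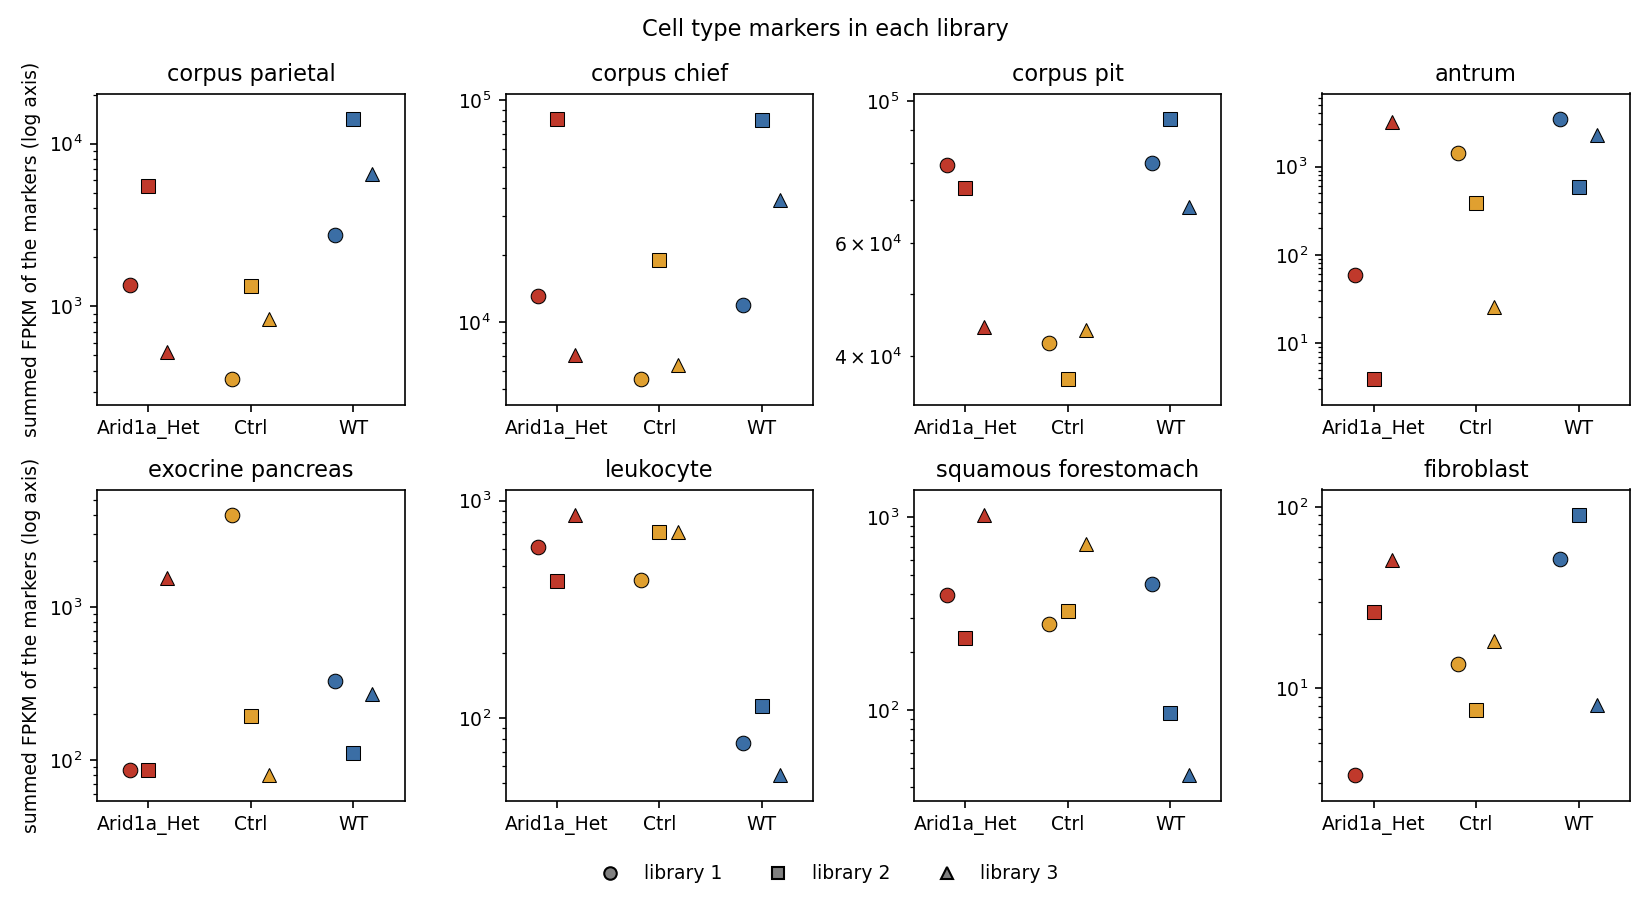
Summed FPKM of the markers of each cell type or tissue, on log axes, with a symbol for each library of Arid1a_Het, Ctrl and WT. Arid1a_Het 2 is the highest of its group in parietal and chief markers, Ctrl 1 and Arid1a_Het 3 hold the most exocrine pancreas, and leukocyte markers are lowest in the 3 WT libraries.

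Of 20 other genes used as metaplasia markers 16 were tested, and in Ctrl against WT 3 rose, 1 fell and 12 did not pass in limma, with a median difference of 1.18 in log2(FPKM + 1). Among all genes 7.01% rose and 3.04% fell, with a median of 0.24. With the replicate block 7 of the 16 rose. At an unadjusted p under 0.05, which 32.1% of all genes reached, 10 of the 16 were higher and 1 was lower. Pigr, the receptor that carries IgA across epithelia, rose to 878, 952 and 875 FPKM in Ctrl 1, 2 and 3, against 46.0, 35.9 and 46.9 FPKM in WT 1, 2 and 3 (log2 fold change 4.37, SE 0.34, adjusted p = 0.0003 in limma). Dmbt1, a secreted scavenger receptor glycoprotein of mucosae, rose to 957 to 1322 FPKM in Ctrl, against 54.6 to 147 FPKM in WT (log2 fold change 3.48, SE 0.52, adjusted p = 0.0059 in limma). Muc4, a membrane mucin, rose by 3.26 (SE 0.62, adjusted p = 0.016 in limma), and Cystm1 fell by 0.84 (SE 0.18, adjusted p = 0.022 in limma). The call of Muc4 was lost without Ctrl 3, WT 2 or WT 3 (adjusted p up to 0.074 in limma), and that of Cystm1 without Ctrl 1, Ctrl 3, WT 2 or WT 3 (up to 0.075). The count of 3 that rose was 5 without Arid1a_Het 2 or Arid1a_Het 3, whose libraries enter the shared estimate of the spread. The neck cell genes by which this metaplasia was first defined did not pass: Tff2, the spasmolytic polypeptide, was at 5651 to 15202 FPKM in Ctrl and 5058 to 10788.5 FPKM in WT, and the mucin Muc6 at 7.76 to 37.5 FPKM in Ctrl and 7.98 to 28.0 FPKM in WT. The neck marker Gkn3 did not pass either, but its mean was higher in Ctrl (log2 fold change 1.43, SE 0.60, adjusted p = 0.139 in limma). It was at 1179 to 3175 FPKM in Ctrl and 301 to 1373 FPKM in WT. A4gnt, a neck marker outside this list, was at 18.7 to 60.8 FPKM in Ctrl and 25.5 to 84.1 FPKM in WT.

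In Arid1a_Het against WT Pigr alone of the 16 rose, by 2.95 (SE 0.34, adjusted p = 0.0031 in limma), and 4 did without Arid1a_Het 2. The share of all genes that rose there was 2.06%. In Arid1a_Het against Ctrl 0 of the 16 passed in limma and in limma voom. Of the 16, 4 had an unadjusted p under 0.05, as did 11.6% of all genes. These were Pigr, Dmbt1, Slc7a11 and Gpx2, all lower in Arid1a_Het. Pigr was at 317, 198 and 607 FPKM in Arid1a_Het 1, 2 and 3, below the 3 Ctrl values, and 1 of the 16 was called lower without Arid1a_Het 3.

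Of 15 genes of ducts and ductal progenitor cells tested in Ctrl against WT 9 rose, 1 fell and 5 did not pass, with a median of 1.28. Among all genes 7.01% rose and 3.04% fell, with a median of 0.24. The list was chosen with earlier results of these data known. Onecut2, a transcription factor of liver and pancreas development, was at 30.8, 30.2 and 50.01 FPKM in Ctrl 1, 2 and 3, against 0.617, 0.238 and 0.125 FPKM in WT 1, 2 and 3 (log2 fold change 4.82, SE 0.47, adjusted p = 0.0011 in limma). Cldn4, a tight junction claudin, was at 31.3 to 37.1 FPKM in Ctrl and 0.523 to 1.92 FPKM in WT (log2 fold change 3.99, SE 0.59, adjusted p = 0.0056 in limma). Lcn2, a secreted iron-siderophore binding protein, was at 9.76 to 16.0 FPKM in Ctrl and at most 0.0821 FPKM in WT (log2 fold change 3.70, SE 0.55, adjusted p = 0.0058 in limma). Krt7, Muc1, Prom1, Epcam, Mmp7 and Sox4 rose too. The call of Sox4 was lost in 10 of 18 alternatives and that of Prom1 in 2. Foxa2, a transcription factor of foregut epithelium, fell, a call lost without any 1 of the Ctrl or WT libraries and with no filter. The count of 9 was 5 without Ctrl 1 or Ctrl 2 and 3 without Ctrl 3. Onecut2, Lcn2 and Mmp7 were below 1 FPKM in every WT library, so they passed the filter on low values only through Arid1a_Het and Ctrl. Nothing is read from their calls or from the count of 9 that includes them.

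In Arid1a_Het against WT 5 of the 15 duct genes rose, Onecut2, Krt7, Muc1, Prom1 and Cldn4, with a median of 1.15, and 0 fell. Among all genes 2.06% rose and 0.687% fell, with a median of 0.02. The count of 5 was 1 without Arid1a_Het 1 or WT 3, 2 without Arid1a_Het 3 or WT 2 and 3 without any 1 of the Ctrl libraries. It ran up to 7 over single libraries left out. Onecut2 was called in all 18 alternatives, but it could enter the test only through the groups where it was high, so nothing is read from its call. The call of Prom1 was lost in 12 of 18 alternatives and that of Cldn4 in 6. In Arid1a_Het against Ctrl 0 passed in limma and in limma voom, and 1, Lcn2, had an unadjusted p under 0.05, as did 11.6% of all genes. Lcn2 stood at 1.17, 1.13 and 10.1 FPKM in Arid1a_Het 1, 2 and 3 and at 13.9, 9.76 and 16.0 FPKM in Ctrl 1, 2 and 3, so the groups overlapped through Arid1a_Het 3.

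Genes for ion and fluid transport in ducts, the pathway of Cftr, moved in both directions. In Ctrl against WT 3 of 17 rose, the potassium channel Kcnn4, the water and glycerol channel Aqp3 and the amino acid transporter Slc6a14, and 2 fell, the anion exchanger Slc4a2 and the sodium channel subunit Scnn1a, with a median of 0.12. Among all genes 7.01% rose and 3.04% fell, with a median of 0.24. Slc6a14 was at 12.6 to 13.9 FPKM in Ctrl, against 0.277 to 1.25 FPKM in WT (log2 fold change 3.07, SE 0.35, adjusted p = 0.002 in limma). Slc4a2, which parietal cells also use, was at 25.2 to 31.9 FPKM in Ctrl, against 58.6 to 178 FPKM in WT, and was highest in WT 2. The count of 3 that rose was 1 without Ctrl 1, 2 or 3 or WT 2 or 3. The count of 2 that fell was 1 without Arid1a_Het 1 or Ctrl 1 and 0 without Ctrl 2, Ctrl 3, WT 2 or WT 3. Slc6a14 kept its call each time. In Arid1a_Het against WT Slc6a14 alone rose (log2 fold change 2.42, SE 0.35, adjusted p = 0.0094 in limma), and 2 genes did without Arid1a_Het 2. The share of all genes that rose there was 2.06%. In Arid1a_Het against Ctrl 0 of 17 passed in limma and in limma voom, and 1, Adcy6, had an unadjusted p under 0.05, as did 11.6% of all genes.

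**Figure D5:**
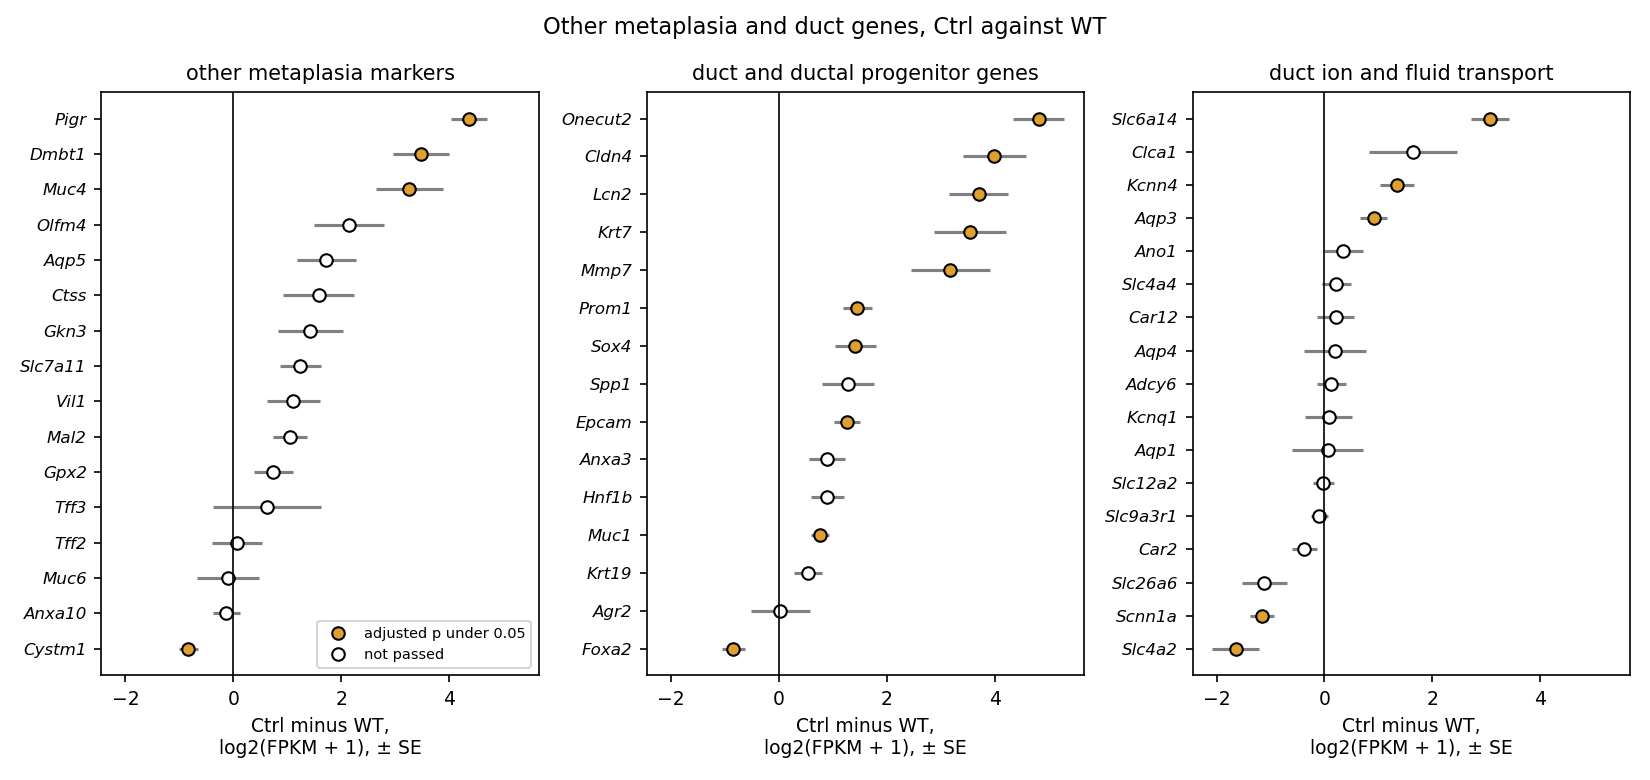
Differences between Ctrl and WT in log2(FPKM + 1), with bars of 1 SE, for the tested genes of 3 lists, filled where the adjusted p in limma was under 0.05. Of the metaplasia markers 3 rose and 1 fell, of the duct genes 9 rose and 1 fell, and of the transport genes 3 rose and 2 fell.

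Relatives of the 8 genes were mostly low. Among WAP domain and secretoglobin genes, 12 of 17 listed were in the table and 6 were tested. Of these 6, 2 rose in Ctrl against WT, as did 7.01% of all genes. Wfdc1 was at 44.9, 46.8 and 48.0 FPKM in Arid1a_Het 1, 2 and 3, at 43.0, 57.1 and 59.4 FPKM in Ctrl 1, 2 and 3, and at 2.91, 5.57 and 0.710 FPKM in WT 1, 2 and 3. Its log2 fold change was 3.75 (SE 0.40, adjusted p = 0.0024 in limma) in Arid1a_Het against WT and 3.93 (SE 0.40, adjusted p = 0.0013 in limma) in Ctrl against WT, and, unlike Wfdc2, it varied little within Arid1a_Het. Wfdc18 rose by 2.96 (SE 0.49, adjusted p = 0.0096 in limma) in Ctrl against WT.

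The other subunits of the receptor that were measured lay far below Gabrp in the transgenic glands. The 12 GABA-A receptor subunit genes with values, of 17 listed, reached at most 0.629 FPKM in any library, and none passed the filter. Of the 8 CEACAM relatives with values only Ceacam1 was tested, an adhesion molecule of epithelia. It was at 45.5, 17.8 and 55.6 FPKM in Arid1a_Het 1, 2 and 3, at 32.5, 49.9 and 64.3 FPKM in Ctrl 1, 2 and 3, and at 6.08, 1.43 and 3.22 FPKM in WT 1, 2 and 3. Ceacam1 rose in Ctrl against WT (log2 fold change 3.53, SE 0.48, adjusted p = 0.0046 in limma) and in Arid1a_Het against WT (log2 fold change 3.14, SE 0.48, adjusted p = 0.013 in limma), the second of which was lost without Arid1a_Het 1, without WT 3 or without both pancreas libraries. Reads of near-identical CEACAM genes may be split between them, which makes Ceacam10 and its relatives uncertain.

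Of 10 tested genes that make or bind CD44 ligands or splice CD44, 0 passed in Ctrl against WT in limma and in limma voom, and 5, Spp1, Rdx, Hyal2, Ezr and Msn, had an unadjusted p under 0.05, as did 32.1% of all genes. Of 4 SOX genes tested beside Sox9, Sox4 rose in Ctrl against WT (log2 fold change 1.42, SE 0.38, adjusted p = 0.047 in limma), and the call was lost in 10 of 18 alternatives.

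The likeness of patterns was measured as the root mean square difference of z-scores over the 9 libraries, where 0 is an identical pattern. Among the 8 genes Clu and Gabrp were closest, at 0.180, then Wfdc2 and Gabrp at 0.224, Wfdc2 and Clu at 0.244 and Cftr and Clu at 0.263. Cd44 was nearest to Cftr at 0.356, Scgb3a1 to Gabrp at 0.486 and Sox9 to Scgb3a1 at 0.559. Ceacam10 had no close match among them, its nearest being Sox9 at 0.820.

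Outside the 8 genes, the patterns nearest to their mean were those of Pigr at 0.182, Reg3b at 0.188, Slc6a14 at 0.203, Reg3g at 0.204, Pglyrp1 at 0.205 and Cxcl5 at 0.214. Reg3b and Reg3g encode antimicrobial lectins, Pglyrp1 a peptidoglycan-binding protein and Cxcl5 a chemokine for neutrophils. Reg3b was at 21.2, 19.7 and 83.6 FPKM in Arid1a_Het 1, 2 and 3, at 197, 178 and 173 FPKM in Ctrl 1, 2 and 3, and at 0.113, 0.0333 and 0.302 FPKM in WT 1, 2 and 3. Like Scgb3a1, whose nearest gene it was at 0.240, Reg3b had 3 groups without overlap and Arid1a_Het in between. The nearest genes of the others were Otop3 for Wfdc2 at 0.0987, Bcl3 for Cftr at 0.110, Gcnt2 for Clu at 0.0910, Kdm5a for Sox9 at 0.223, Nol9 for Cd44 at 0.0523, Cd177 for Ceacam10 at 0.129 and Epha4 for Gabrp at 0.0665. With 9 libraries in 3 groups many genes have like patterns, and the distances are a description of these libraries.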

How the data were processed

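The authors deposited 1 table of FPKM values for 18423 genes in 9 libraries of poly(A) RNA, made with a stranded kit per the labels' protocols. The submitters' processing notes name STAR 2.4.2a and the builds GRCm38 and mm10. The tool that made the FPKM values is not given in the sources used here. Groups come from the genotype in the labels. Whole reads were worked out from the steps of the FPKM values (18423 of 18423 genes whole within 0.01) and used for depth, shares of reads and limma voom.

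limma 3.58.1 in R 4.3.3, with an intensity trend, was fitted to log2(FPKM + 1) of all 9 libraries with 3 group means, on the 11209 genes that reached an FPKM of 1 in 3 or more libraries. Log2 differences understate the change of low genes. The other 7214 genes were left out. All 8 genes passed, Gabrp and Scgb3a1 only through Arid1a_Het and Ctrl. Calls need a Benjamini-Hochberg adjusted p under 0.05. The fit was tested on simulated data. The 8 genes, 8 further lists, the markers and the tests were chosen with earlier results of these data known, and some come from an earlier analysis of them. Named besides the 8 genes are up to 4 genes of lowest p per list, genes behind counts of 5 or fewer, and the nearest patterns. A further listed transport gene is not reported here. Tff2, Muc6, Gkn3, A4gnt, Ptprc, further called duct genes and the genes of the last section were picked with values seen. Same-numbered WT and Ctrl libraries had correlated deviations in the data (0.207, 0.336 and 0.138). Those of Arid1a_Het and Ctrl (-0.151, 0.467 and -0.02) and of Arid1a_Het and WT (0.252, 0.563 and -0.279) took both signs. No pairing was used in the main fit, and the replicate block was only an alternative. Positions are from GENCODE M21 and promoters from RefSeq on GRCm38.p6, those of Sox9 and Clu not being analysed here. Python 3.11.15 with pandas 2.3.3, numpy 2.4.6 and matplotlib 3.10.9 was used. The 18 alternatives were a pseudocount of 0.1, a minimum FPKM of 5 or none, scaling by median ratios or quantiles, a fit of the 2 groups compared, the replicate block, no pancreas libraries, voom and each of the 9 libraries left out.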

Additional observations from a re-analysis of the deposited data

How the results depend on the processing

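The differences of the 8 genes in the comparisons with WT kept their direction under all 18 alternatives that tested them. Some of these alternatives cannot change a difference between 2 groups. They are the filters, the fit of the 2 groups, the replicate block and leaving out a library of the group not compared. For Arid1a_Het against Ctrl, genes called numbered 1, with 1 to 22 over libraries left out, 0 with a pseudocount of 0.1 or voom, 2 with a minimum FPKM of 5, quantile normalization or the replicate block, 4 with no filter, 5 with only the 2 groups and 21 with no pancreas libraries. Metaplasia markers called lower ranged from 0 to 1 over libraries left out, as did duct genes, which were 1 with no pancreas libraries. For Arid1a_Het against WT, genes called numbered 308, with 91 to 720 over libraries left out, 140 with no filter, 105 with only the 2 groups, 691 with the replicate block and 115 with no pancreas libraries. Called members of the 8 ranged from 3 to 5, with 3 for no filter. Metaplasia markers that rose ranged from 1 to 4, with 2 for the replicate block, which called 1 lower. Transport genes that rose ranged from 1 to 2, with 0 for only the 2 groups and 2 for the replicate block, which called 2 lower. Duct genes that rose ranged from 1 to 7, with 1 for no filter or only the 2 groups, 2 for no pancreas libraries and 3 for voom. For Ctrl against WT, genes called numbered 1127, with 260 to 1465 over libraries left out, 748 with a minimum FPKM of 5, 2473 with the replicate block and 707 with no pancreas libraries. Metaplasia markers that rose ranged from 2 to 5, with 6 for only the 2 groups and 7 for the replicate block, and those that fell from 0 to 1. Transport genes that rose ranged from 1 to 3, with 1 for no filter, and those that fell from 0 to 2, with 1 for no filter, median-ratio scaling or no pancreas libraries. Duct genes that rose ranged from 3 to 11 and those that fell from 0 to 1, with 0 for no filter. Sox21, which did not pass, was at 0.17 in Ctrl against WT, but at -0.090 with median-ratio scaling, -0.0099 with quantile normalization, -0.0040 with no pancreas libraries and -0.14 to 0.50 over libraries left out. Among single genes, 60 values fell below the threshold in an alternative and 6 passed it anew. The causes of these shifts were not tested, beyond fewer libraries or genes entering a fit. Depth limits Scgb3a1 and Gabrp in WT, at 0 to 14 reads, and Ceacam10 everywhere.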

Other observations

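Ctrl 1, the library with the most exocrine pancreas RNA, also held intestinal genes that the other libraries nearly lacked. These genes were picked after their values were seen. Ceacam2, an adhesion molecule related to Ceacam1, was at 18.8 FPKM in Ctrl 1 and at most 0.352 FPKM in the other libraries. Cdx2, a transcription factor that specifies intestine, was at 2.204 FPKM in Ctrl 1 and at most 0.133 FPKM elsewhere, and the intestinal mucin Muc2 was at 1.11 FPKM and at most 0.254 FPKM. Ceacam18 was at 1.30 FPKM in Ctrl 1 and at 0 in the other 8 libraries. The trefoil factor Tff3, which goblet cells secrete, was at 42.6 FPKM in Ctrl 1, 1.70 to 9.18 FPKM in Arid1a_Het, 1.201 to 1.58 FPKM in Ctrl 2 and 3, and 2.54 to 4.11 FPKM in WT. Tff3, the only 1 of these genes with enough signal to be tested, did not pass between groups. Among the 8 genes of the report, Ctrl 1 was the highest of its group in Cd44 and Gabrp, at 44.9 and 60.7 FPKM, and the lowest in Wfdc2, Clu and Scgb3a1. Whether intestinal or pancreatic tissue in that library bears on these levels was not tested.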
